A study of Mus musculus with 36 samples.

Results

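The genes described here encode collagens, other extracellular matrix proteins, the enzymes that crosslink or cut them, the signals that raise their production and the marker proteins of hepatic stellate cells, 40 genes in all. A probe of the array was taken as a member when its gene symbol in the platform annotation, current or older, was on this list and its detection p-value lay below 0.05 on at least 6 of the 36 arrays. Of 45281 probes on the array, 77 named 37 of the 40 genes, and 44 of these probes, for 30 genes, met the rule. The genes were picked by function and not by their values in these livers, but with results of the same data known.

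The livers came from 36 male mice aged 20 weeks, each hybridized to its own Illumina MouseWG-6 v2.0 array of oligonucleotide probes. The sample labels give the strain as C57BL/6J and the series design as C57BL/6JBomTac. For 13 weeks 6 mice each ate 1 of 6 diets. Fat supplied 10% of the energy in the low-fat diet and 45% in the high-fat diet, and 4 further diets were the high-fat diet with 20% of its weight as freeze-dried berries (lingonberry, blackcurrant, bilberry or açai). The 4 berry diets therefore share the fat content of the high-fat diet, and every comparison of a berry with high-fat or low-fat livers uses the same 6 control mice. Each liver is taken as a sample of 1 mouse, as the series states 6 per diet, and the error of every value is the spread between those mice.

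In liver, collagen and most of the surrounding matrix are made by stellate cells, which store vitamin A at rest and turn into contractile, matrix-producing cells after injury. Transforming growth factor β is the main signal for that switch, and connective tissue growth factor, the product of Ccn2, acts downstream of it and is also made by hepatocytes. Fibrillar collagens give tensile strength, network collagens build the basement membrane of vessels and bile ducts, and matrix metalloproteinases with their inhibitors set how fast the matrix is turned over. Dietary fat loads the hepatocytes with lipid, and fibrosis is a late consequence of fatty liver in people and in rodent models.

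Across the arrays 14240 to 15670 probes were detected, the median raw intensity ran from 81.2 to 103, and the median correlation with the other arrays from 0.975 to 0.986. Each chip held 1 array of every diet, and since a diet kept its place on all chips, an effect of place cannot be told apart from diet. The 6 hepatocyte markers Alb, Ttr, Apoa1, Tat, Cps1 and Ass1 all passed the detection rule, and of 10 stellate cell markers 7 did, while Pdgfrb and Hand2 did not. Transcripts of the pancreas stood out in 6 arrays, low-fat replicate 6, lingonberry replicate 2, blackcurrant replicate 3, bilberry replicate 2 and açai replicates 4 and 6. Their mean log2 level of 9 acinar markers was 7.04 to 9.39, against at most 5.09 in the others. Precision is limited by the number of arrays.

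Detection separated the list before any diet was compared. Of the 7 genes with a probe that did not meet the rule, Col1a1, the main chain of type I collagen, was detected on 3 arrays, the laminin gene Lamb1 on 4 and the platelet-derived growth factor receptor gene Pdgfrb on 5. Eln, which encodes elastin, and Tagln, an actin-binding protein of contractile cells, reached 3 arrays at the better of their probes. Col5a2 with its 5 probes and the lysyl oxidase gene Lox were detected on none. Col6a3, Loxl2 and Fbn1 had no probe under their symbols and are not analysed here. Just inside the rule stood Col6a2 with 6 arrays, and just outside it Pdgfrb and a further probe of Timp3 with 5 each. Of the 30 genes tested, 21 were detected on all 36 arrays and 20 had a single tested probe. Each gene is given at its brightest tested probe, and other probes are named where they differ. Levels are log2 intensities after background correction and quantile normalization, and they can be compared between mice but not between genes, since probes differ in brightness.

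Promoter sequences are shown for Sparc and Col3a1, which stood highest on açai, and for Timp2, which stood highest on low fat, so that their letters can be set beside the diet patterns given below. They are the 250 bases before the RefSeq start of each gene in build GRCm38.p6, read 5′ to 3′ on the strand of the gene, with motif matches in capitals. Sparc lies on the minus strand at chr11:55420081-55420330, Col3a1 on the plus strand at chr1:45311288-45311537 and Timp2 on the minus strand at chr11:118355412-118355661.
Sparc: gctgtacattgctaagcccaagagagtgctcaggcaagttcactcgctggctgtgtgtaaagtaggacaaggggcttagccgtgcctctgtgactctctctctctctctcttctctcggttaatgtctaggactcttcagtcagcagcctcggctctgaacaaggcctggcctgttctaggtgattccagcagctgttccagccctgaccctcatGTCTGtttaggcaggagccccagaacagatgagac
Col3a1: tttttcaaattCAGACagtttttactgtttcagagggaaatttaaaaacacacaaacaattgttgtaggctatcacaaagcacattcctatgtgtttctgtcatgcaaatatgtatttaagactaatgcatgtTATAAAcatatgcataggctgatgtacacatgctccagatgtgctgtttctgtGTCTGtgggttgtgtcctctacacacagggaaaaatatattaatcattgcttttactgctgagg
Timp2: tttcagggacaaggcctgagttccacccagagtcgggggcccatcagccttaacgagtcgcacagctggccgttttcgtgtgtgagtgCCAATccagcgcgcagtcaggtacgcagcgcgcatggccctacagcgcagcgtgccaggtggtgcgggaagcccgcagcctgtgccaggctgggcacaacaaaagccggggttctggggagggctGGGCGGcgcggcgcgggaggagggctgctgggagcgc
Capitals mark CAGAC or its reverse GTCTG, the letters of a SMAD binding element of the transforming growth factor β pathway, the GC box GGGCGG or CCGCCC, the CCAAT box CCAAT or ATTGG, and TATAAA or TTTATA, the letters of a TATA box. The motifs were searched on both strands, and no matches overlap in these windows. In Sparc the match is GTCTG at position -35 to -31 from the start. Col3a1 holds CAGAC at -239 to -235, TATAAA at -117 to -112 and GTCTG at -64 to -60. Timp2 holds CCAAT at -162 to -158 and GGGCGG at -37 to -32. Of the 32851 promoters searched 42.2% held CAGAC or its reverse, 32.7% a GC box, 33.8% a CCAAT box and 12.4% the TATA letters. Of 25 promoters for 23 of the listed genes, 10, 16, 9 and 2 held them in that order. Such short matches describe letters and do not show binding. Among the listed genes Col4a1 and Col4a2 are neighbours that start head to head on opposite strands, Col3a1 lies next to Col5a2, and Dcn next to Lum.

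Few of the 30 genes differed between diets beyond the spread between mice, and none by a log2 difference as large as 1. Over all 6 diets 4 genes differed by limma's moderated F test, Ccn2 (adjusted p = 0.00292), Sparc (adjusted p = 0.0247), Timp2 (adjusted p = 0.0313) and Col4a1 (adjusted p = 0.0388), where 8.03% of all 17907 tested probes were called. These adjusted p-values take in every tested probe, as do all below, and a call means an adjusted p below 0.05. With chip as a block in the limma fit, which compares the arrays of the same chip with each other, 8 genes were called, against 13.1% of all probes. The 4 added were Col3a1 (adjusted p = 0.00837), Col4a2 (adjusted p = 0.0115), Col5a1 (adjusted p = 0.0243) and Reln (adjusted p = 0.0285). Without the 6 arrays with pancreatic transcripts the F test called 2 genes, Ccn2 (adjusted p = 0.0143) and Reln (adjusted p = 0.0381). The share of all probes called in that fit is not given.

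**Figure D1:**
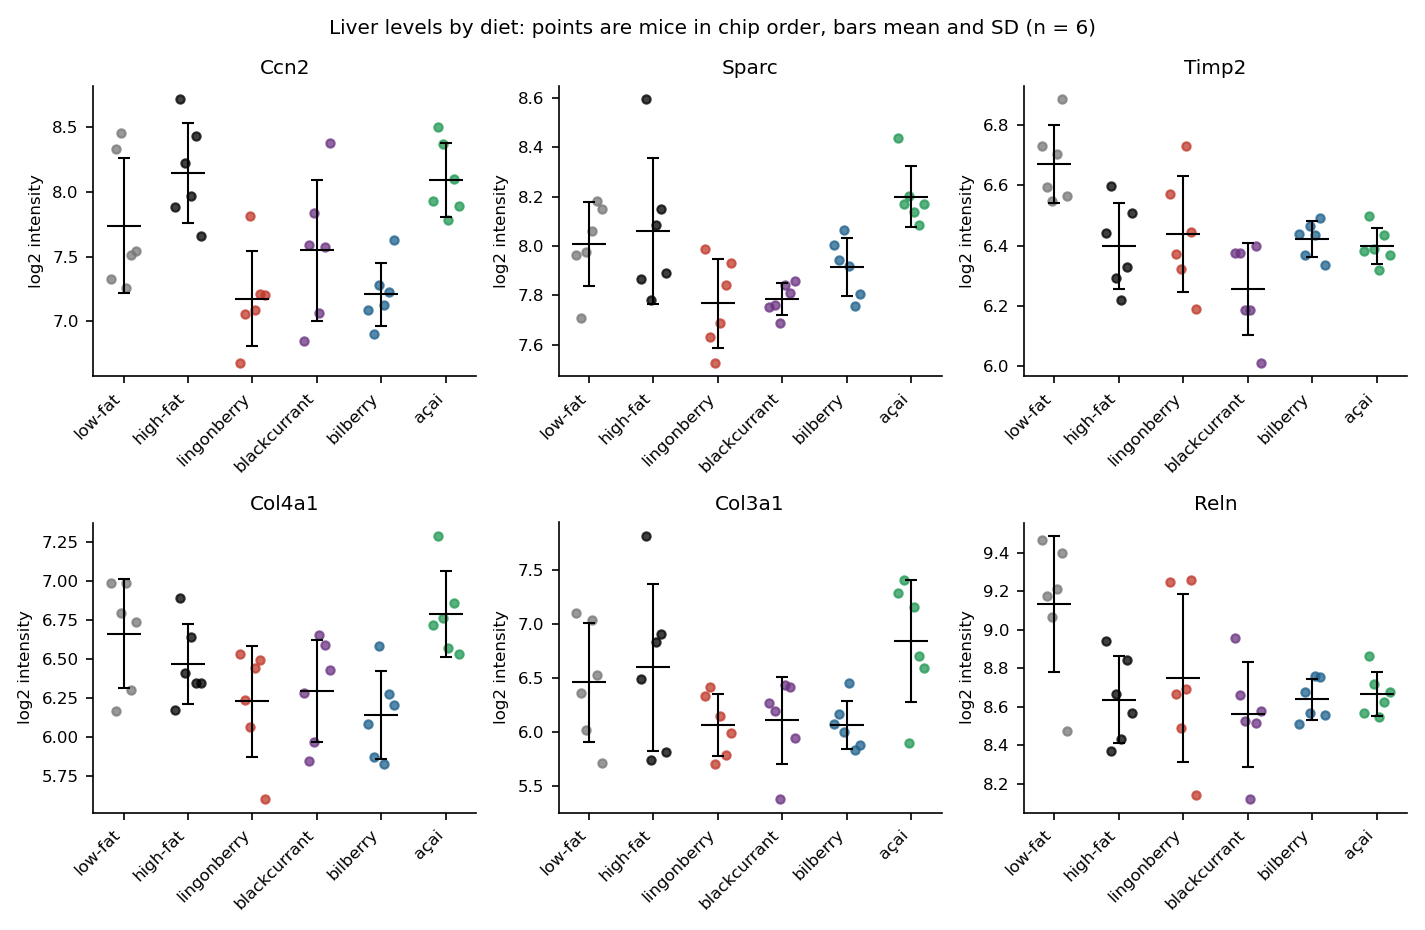
Log2 intensity (y axis) of Ccn2, Sparc, Timp2, Col4a1, Col3a1 and Reln in each of the 6 diets (x axis). Points are single mice placed in chip order, and bars give the mean and SD of 6 mice. Ccn2 averaged 8.15 on high fat and 7.17 and 7.21 on lingonberry and bilberry, and Timp2 averaged 6.67 on low fat against 6.26 on blackcurrant.

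The high-fat diet was set against the low-fat diet to ask how these genes differ between the 2 diets without berries. The labels give only the fat share of energy, so whatever else differs between these diets cannot be told apart from fat. None of the 30 was called, where 3.31% of all tested probes were, and 7 had an unadjusted p below 0.05. Here and below, the shares of all probes count adjusted p-values. Counts of genes at an unadjusted p therefore cannot be set against them. The median log2 difference was -0.13, with 21 genes lower and 9 higher on high fat, while 49.2% of all tested probes were higher. Over all tested probes the median log2 difference lay between -0.0146 and 0.00648 in each of the 15 pairs of diets. Blocked by chip, the limma fit called 2 genes, both lower on high fat, Timp2 (adjusted p = 0.0414, and 0.0804 without the block) and Reln (adjusted p = 0.0242, and 0.0691 without it), against 5.86% of all probes. No list member rose under either fit.

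Berries were set against high fat to ask how each diet differs at the same fat share of energy. Whatever else the berries replaced in the diet cannot be told apart from the berries. On lingonberry 1 gene of 30 was called, the fall of Ccn2, where 2.25% of all tested probes were called. The blocked fit called 2, Ccn2 and the smooth muscle actin gene Acta2, against 4%. On bilberry Ccn2 was again the gene called, 1 of 30, against 0.38% of all probes, and 1 with chip as a block against 0.609%. On blackcurrant no gene was called by limma, with or without the block, against 0.134% and 0.19% of all probes, and 3 had an unadjusted p below 0.05. On açai none was called either way, against 0.0447% and 0.123%, and 2 had an unadjusted p below 0.05. The median log2 differences were -0.11 on lingonberry, -0.09 on blackcurrant, -0.12 on bilberry and 0.05 on açai, with 19, 20, 22 and 9 of 30 genes lower.

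Set against low fat, where both fat and berry differ, limma called 2 genes on blackcurrant, Timp2 and Reln, both lower, against 2.31% of all tested probes. None was called on lingonberry (3.28% of all probes), bilberry (1.61%) or açai (6.47%). An unadjusted p below 0.05 was found for 14, 12 and 5 genes in that order. The matching share of all probes at an unadjusted p is not given, so no excess can be read from these counts. With chip as a block 3 genes were called on lingonberry (4.96% of all probes), 4 on blackcurrant (4.15%), 3 on bilberry (2.9%) and 3 on açai (10.2%), all of them lower than on low fat. Most of the list lay on the lower side in 3 of these comparisons, with 27, 24 and 26 of 30 genes lower on lingonberry, blackcurrant and bilberry and median log2 differences of -0.22, -0.22 and -0.25. On açai 18 of 30 were lower, with a median of -0.04. Over all tested probes the medians on lingonberry, blackcurrant, bilberry and açai were -0.000384, -0.000273, -0.00438 and -0.0142. All 4 comparisons share the 6 low-fat mice, and genes can vary together among livers, so these counts are not independent. In bulk liver fewer cells of a type and less RNA per cell cannot be told apart.

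Between berries the few calls made were higher on açai. Against lingonberry 2 of 30 genes were called higher, Sparc and Ccn2, where 3.35% of all probes were called in either direction. Against blackcurrant 1 was called, Sparc (1.76% of all probes), and against bilberry 1, Ccn2 (0.771%). In the blocked fit these counts were 4, 2 and 2, against 5.25%, 3.19% and 1.33%, all higher on açai. In number 25, 24 and 25 of the 30 genes were higher on açai than on lingonberry, blackcurrant and bilberry, with median log2 differences of 0.12, 0.10 and 0.14. Of all tested probes 46.9%, 47.4% and 47.5% were higher on açai. No gene was called by limma with or without the block between lingonberry and blackcurrant, lingonberry and bilberry or blackcurrant and bilberry, and 3, 1 and 3 had an unadjusted p below 0.05. Of all probes 0.983%, 0.246% and 0.212% were called in these pairs, and 1.85%, 0.553% and 0.424% with the block. The 3 açai comparisons share the 6 açai mice.

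**Figure D2:**
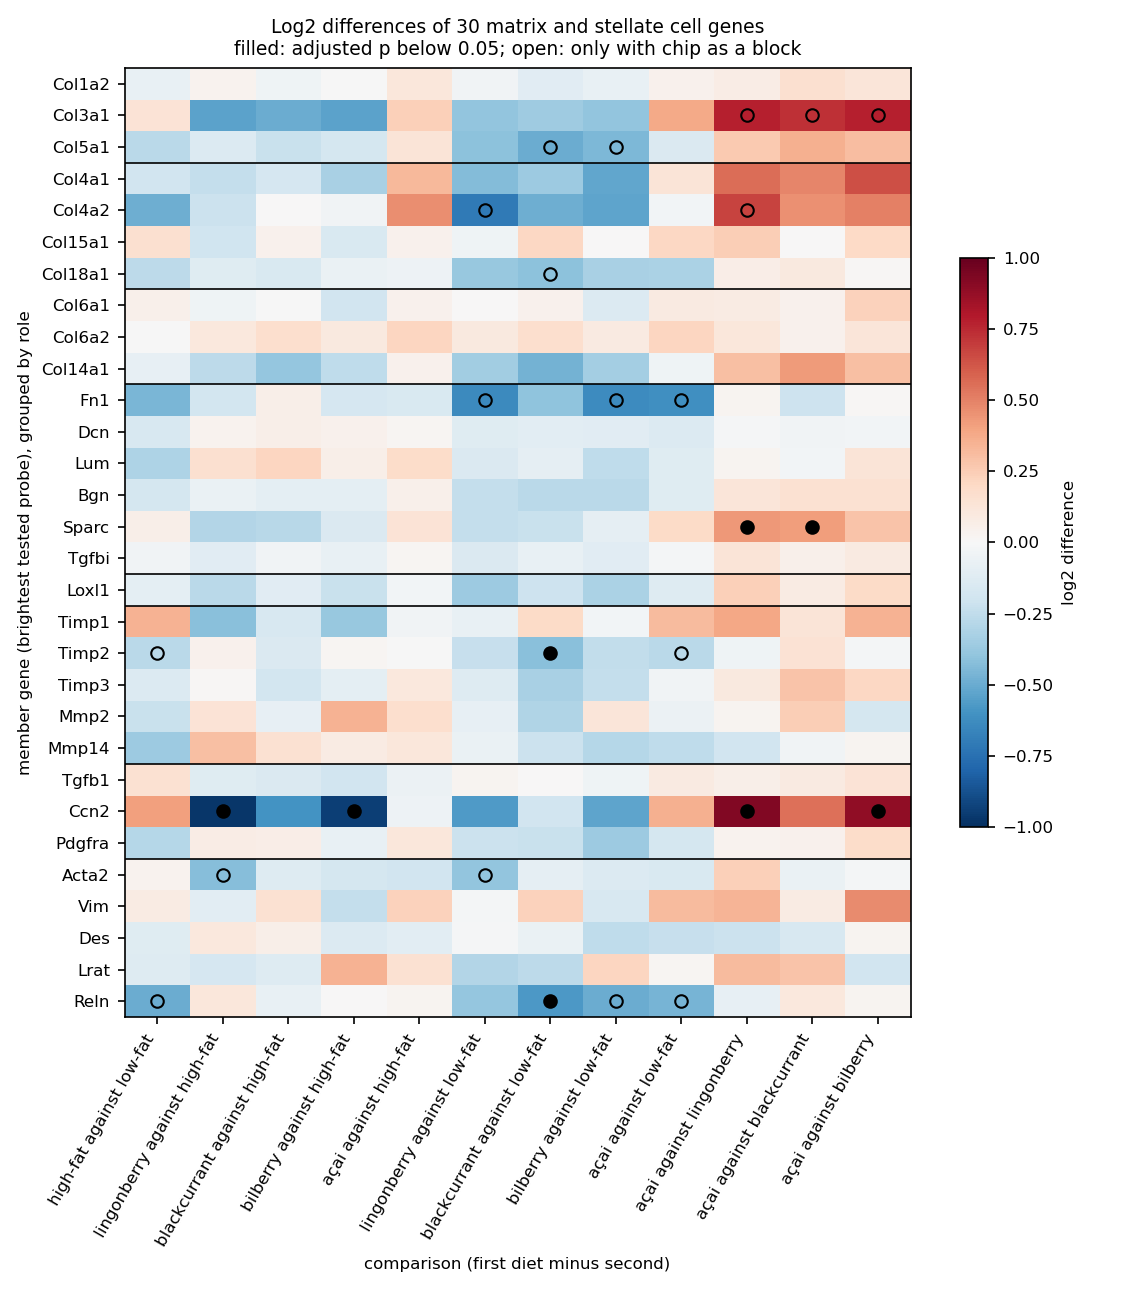
Log2 differences (colour, from -1 to 1) of the 30 tested genes (rows, grouped by role) in 12 comparisons of diets (columns, first diet minus second). Filled circles mark genes called by limma at an adjusted p below 0.05 and open circles genes called with chip as a block but not without it. Calls against low fat and high fat lie on the lower side, and calls of açai against other berries on the higher side.

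Ccn2, whose secreted product binds matrix proteins and growth factors and promotes collagen production, had the smallest adjusted p of the list over the 6 diets. In high-fat livers its lowest, median and highest log2 levels were 7.66, 8.10 and 8.72, and in açai livers 7.78, 8.02 and 8.50. Lingonberry livers stood at 6.68, 7.14 and 7.81, bilberry livers at 6.90, 7.18 and 7.63, blackcurrant livers at 6.85, 7.58 and 8.38 and low-fat livers at 7.26, 7.53 and 8.46. Every bilberry liver lay below every high-fat and every açai liver, while lingonberry overlapped both at a single liver, and blackcurrant and low fat spanned most of the range. The order of the diet means was high fat, açai, low fat, blackcurrant, bilberry and lingonberry. On this scale low fat (7.74 ± 0.52, SD, n = 6) and blackcurrant (7.55 ± 0.55) were closer than their own spread, as were high fat (8.15 ± 0.39) and açai (8.10 ± 0.29), and bilberry (7.21 ± 0.24) and lingonberry (7.17 ± 0.37).

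Against high fat Ccn2 fell on lingonberry by a log2 difference of -0.97 ± 0.22 (SE, limma adjusted p = 0.0106, 95% interval -1.42 to -0.53), a level 0.509 times that on high fat, and was lower on 6 of 6 chips. It fell on bilberry by -0.94 ± 0.22 (limma adjusted p = 0.0411), or 0.521 times, also on 6 of 6. On blackcurrant the difference was -0.60 (limma adjusted p = 0.335) and on açai -0.05 (adjusted p = 0.995). Açai stood above lingonberry by 0.92 ± 0.22 (limma adjusted p = 0.0102) and above bilberry by 0.89 ± 0.22 (limma adjusted p = 0.0376), both on 6 of 6 chips. The second Ccn2 probe gave the same calls, at -0.74 and -0.84 for lingonberry and bilberry against high fat and 0.76 and 0.86 for açai against them. High fat against low fat gave 0.41 (95% interval -0.04 to 0.86, limma adjusted p = 0.38).

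The lingonberry call was lost without the arrays of chip 2 or of chip 5 (limma adjusted p = 0.0929 and 0.0928). Leaving out the arrays with pancreatic transcripts kept it at -0.95 (limma adjusted p = 0.0345), and the bilberry difference was then -0.88 (limma adjusted p = 0.15). The bilberry call had the smaller margin, being lost in 17 of the 52 other settings, among them without high-fat replicate 2, 3, 4 or 5 or bilberry replicate 1, 2, 4 or 5 (-0.98 to -0.83, limma adjusted p = 0.0605 to 0.145). The call for açai against bilberry was likewise lost without bilberry replicate 1, 2, 4 or 5 or açai replicate 1, 2, 3 or 5 (0.81 to 0.92, limma adjusted p = 0.054 to 0.123), and that for açai against lingonberry without the arrays of chip 1, 2 or 5 (0.82 to 0.93, limma adjusted p = 0.0512 to 0.0644). Serpinh1, the collagen chaperone gene, moved in the same direction on lingonberry, and so did Lyve1, a marker of sinusoidal endothelial cells, which was lower than on high fat by -0.87 (limma adjusted p = 0.0241). Lyve1 was also lower on lingonberry than on low fat by -0.85 (limma adjusted p = 0.0193) and higher on açai than on lingonberry by 0.87 (limma adjusted p = 0.0163), and the 3 calls were lost in 11, 7 and 6 of 52 other settings. The other 8 endothelial markers tested were not called against high fat, and the mean of all 9 ran from 6.80 to 7.10 in lingonberry and from 6.81 to 7.05 in high-fat livers. Their part in the Ccn2 difference was not tested.

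The other signal genes did not reach a call in any comparison. Tgfb1, the ligand transforming growth factor β1, was near the limit of detection, on 24 of 36 arrays, and its diet means differed by at most 0.19 on the log2 scale. Pdgfra, a growth factor receptor of fibroblasts and stellate cells, was highest on low fat (5.96 ± 0.15) and lowest on bilberry (5.60 ± 0.25), a difference of -0.36 for bilberry (limma adjusted p = 0.067). Its low-fat livers, from 5.78 to 6.13, overlapped those of every other diet.

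Sparc, a matrix glycoprotein that binds collagen and is made by stellate and endothelial cells, was highest on açai. Açai livers had lowest, median and highest log2 levels of 8.08, 8.17 and 8.44, blackcurrant livers of 7.69, 7.79 and 7.86 and lingonberry livers of 7.53, 7.77 and 7.99. Bilberry livers stood at 7.76, 7.93 and 8.06, low-fat livers at 7.71, 8.02 and 8.18 and high-fat livers at 7.78, 7.99 and 8.59. All açai livers thus lay above all livers of the other 3 berries, and within the range of the high-fat livers. Sparc was higher on açai than on lingonberry by 0.43 ± 0.11 (SE, limma adjusted p = 0.0134, 95% interval 0.22 to 0.65) and than on blackcurrant by 0.42 ± 0.11 (limma adjusted p = 0.0294), on 6 of 6 chips in each. Against bilberry the difference was 0.28 (limma adjusted p = 0.268).

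The dimmest of the 3 Sparc probes was called too, at 0.57 for açai against lingonberry (limma adjusted p = 0.00231), and it was also lower on lingonberry than on high fat by -0.49 (limma adjusted p = 0.0162) and than on low fat by -0.41 (limma adjusted p = 0.0404), where the brightest probe gave -0.29 and -0.24 with no call. The remaining probe was not called for açai against either berry, nor over all diets (limma F test, adjusted p = 0.512). Açai against blackcurrant was thus called at 1 of the 3 probes, the brightest, with differences of 0.32 to 0.49. The call against lingonberry was lost without açai replicate 1, the highest açai liver (limma adjusted p = 0.0504), without the arrays of chip 1, 3 or 4 (limma adjusted p = 0.0557, 0.0695 and 0.0598) and without the arrays with pancreatic transcripts (limma adjusted p = 0.0878), with differences of 0.38 to 0.43. Without the latter the blackcurrant difference was 0.42 (limma adjusted p = 0.131), and that call was also lost without blackcurrant replicate 2, 3 or 4 or açai replicate 1 or 2 (0.37 to 0.43, limma adjusted p = 0.0526 to 0.0987) and without the arrays of chip 1, 3, 4, 5 or 6 (0.36 to 0.44, limma adjusted p = 0.0617 to 0.134).

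The fibrillar collagen genes ranged from faint to well detected. Col1a2, the second chain of type I collagen, was detected on 17 arrays, with diet means between 4.64 and 4.79 and no call. Col3a1, which encodes type III collagen, was detected on all arrays and had lowest, median and highest levels of 5.90, 6.92 and 7.41 on açai and 5.74, 6.66 and 7.81 on high fat. On lingonberry these were 5.70, 6.07 and 6.41, on blackcurrant 5.38, 6.23 and 6.43 and on bilberry 5.83, 6.03 and 6.45, and on low fat 5.72, 6.45 and 7.10. The 3 other berries kept a narrow low range that the upper high-fat, low-fat and açai livers exceeded and their lowest livers shared.

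Col3a1 was higher on açai than on lingonberry by 0.78 ± 0.27 (SE, limma adjusted p = 0.108), than on blackcurrant by 0.73 ± 0.27 (limma adjusted p = 0.181) and than on bilberry by 0.77 ± 0.27 (limma adjusted p = 0.201). All 3 differences were called with chip as a block, with limma adjusted p = 0.0105, 0.0238 and 0.0261. They had that sign on 6, 6 and 5 of 6 chips. Col5a1, which encodes a chain of the type V collagen that starts fibrils, was highest on low fat, from 5.57 to 6.06 with a median of 5.83, and lowest on blackcurrant, from 4.96 to 5.92 with a median of 5.31. The ranges overlapped, and the difference of -0.50 ± 0.14 was called with the block (limma adjusted p = 0.0182) and just missed without it (limma adjusted p = 0.0517), gaining the call in 12 of 52 other settings, the block among them. For bilberry against low fat it was -0.45 (limma adjusted p = 0.0401 with the block and 0.102 without it).

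The type IV collagen genes Col4a1 and Col4a2, whose products form the network of basement membranes, followed a like order of diets, with açai and low fat at the top. Col4a1 had lowest, median and highest levels of 6.53, 6.74 and 7.29 on açai, 6.17, 6.76 and 6.99 on low fat and 6.18, 6.38 and 6.89 on high fat. On lingonberry they were 5.60, 6.34 and 6.53, on blackcurrant 5.85, 6.36 and 6.65 and on bilberry 5.83, 6.14 and 6.58. The lowest açai liver stood just below the highest lingonberry and bilberry livers, so that these ranges met only at their ends. Its F test passed, but no single pair of diets did, the nearest being açai against bilberry (0.65, limma adjusted p = 0.0581) and against lingonberry (0.56, limma adjusted p = 0.06). The F test was lost in 22 of 51 other settings, among them the fit without the arrays with pancreatic transcripts (limma adjusted p = 0.105) and 14 fits that left out a single array (limma adjusted p = 0.0506 to 0.0863).

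Col4a2 was lower on lingonberry, from 4.59 to 5.44 with a median of 4.92, than on low fat, from 5.04 to 6.25 with a median of 5.64, and than on açai, from 5.46 to 5.85 with a median of 5.57. No lingonberry liver reached an açai liver. The differences were -0.70 ± 0.21 for lingonberry against low fat (limma adjusted p = 0.0515, or 0.0111 in the blocked fit) and 0.68 ± 0.21 for açai against lingonberry (limma adjusted p = 0.0633, and 0.0153 with it). Without the arrays with pancreatic transcripts the first was -0.81 (limma adjusted p = 0.0365) and the second 0.69 (limma adjusted p = 0.118).

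The further basement membrane collagens, Col15a1 and Col18a1, which are the sources of the fragments restin and endostatin, showed little. Col18a1, which hepatocytes express, had diet means of 11.76 to 12.17, and its difference of -0.41 on blackcurrant against low fat was called with the block (limma adjusted p = 0.0425) and not without it (limma adjusted p = 0.234). Col15a1 was detected on 9 arrays with diet means of 4.36 to 4.60. Of the collagens that bridge or link other fibrils, the type VI genes Col6a1 and Col6a2 had diet means of 5.47 to 5.70 and 4.45 to 4.67. Col14a1 ran from 5.80 on blackcurrant to 6.27 on low fat, a difference of -0.47 (limma adjusted p = 0.08). Without the arrays with pancreatic transcripts it was called, making 3 genes on blackcurrant against low fat.

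Among the glycoproteins and proteoglycans Fn1, which encodes fibronectin and is made in bulk by hepatocytes for the plasma, was highest on low fat, with lowest, median and highest levels of 8.84, 9.56 and 9.88. Lingonberry livers stood at 7.74, 8.80 and 9.84, bilberry livers at 8.59, 8.85 and 9.05 and açai livers at 8.53, 8.76 and 9.44. All overlapped low fat, yet on all 6 chips the livers of the other 5 diets were below the low-fat liver of that chip. The differences of -0.64, -0.63 and -0.61 on lingonberry, bilberry and açai were called with chip as a block (limma adjusted p = 0.0273, 0.0454 and 0.0229) and not in the same fit without it (limma adjusted p = 0.142, 0.217 and 0.114). They gained the call in 2, 3 and 3 of 52 other settings, the block among them. A second Fn1 probe gave -0.75 for açai against low fat, also called with the block (limma adjusted p = 0.0048, and 0.115 without it). Against low fat that probe gave only -0.29 on lingonberry and -0.53 on bilberry, neither called without the block.

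The small leucine-rich proteoglycans decorin (Dcn), lumican (Lum) and biglycan (Bgn), which bind collagen fibrils, and Tgfbi, a secreted adhesion protein induced by transforming growth factor β, were not called at their brightest probe in any comparison. Their diet means spanned 0.16, 0.31, 0.27 and 0.15 on the log2 scale. All 4 had their highest diet mean on low fat. A dimmer Tgfbi probe was lower on lingonberry than on low fat by -0.41, called with the block (limma adjusted p = 0.0458) and not without it (limma adjusted p = 0.0779). The only tested crosslinking enzyme, the lysyl oxidase-like gene Loxl1, ran from 5.45 on lingonberry to 5.81 on low fat with no call.

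Among proteinases and inhibitors Timp2, which encodes an inhibitor of metalloproteinases that also helps to activate Mmp2, was higher on low fat than on the high-fat diets. Low-fat livers had lowest, median and highest levels of 6.55, 6.65 and 6.89 and blackcurrant livers of 6.01, 6.28 and 6.40. High-fat livers stood at 6.22, 6.39 and 6.60, lingonberry livers at 6.19, 6.41 and 6.73, bilberry livers at 6.33, 6.44 and 6.49 and açai livers at 6.32, 6.39 and 6.50. Every low-fat liver lay above every blackcurrant, bilberry and açai liver, while the highest high-fat and lingonberry livers reached into the low-fat range.

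Against low fat Timp2 fell on blackcurrant by -0.42 ± 0.09 (SE, limma adjusted p = 0.00531, 95% interval -0.59 to -0.24), a level 0.749 times that on low fat and lower on 6 of 6 chips. The differences were -0.27 ± 0.09 on high fat, -0.23 on lingonberry, -0.25 on bilberry and -0.27 on açai, and none of these passed (limma adjusted p = 0.0804, 0.161, 0.177 and 0.0536). On açai the call was gained in 10 of 52 other settings, the block among them (limma adjusted p = 0.0289), and on high fat in 3 of 52, the block among them. Blackcurrant against high fat gave -0.14 (limma adjusted p = 0.701). The blackcurrant call was kept without the arrays with pancreatic transcripts (-0.42, limma adjusted p = 0.0244) and without any chip or single array, and was lost when only the 12 arrays of these 2 diets were fitted (limma adjusted p = 0.0887).

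Timp1, the inhibitor that rises in activated stellate cells, was detected on 8 arrays, 4 of them açai, 2 high-fat and 2 blackcurrant. Its diet means ran from 4.36 on lingonberry to 4.78 on high fat with no call. Timp3 had means of 7.33 to 7.65. Mmp2 and Mmp14, the gelatinase and the membrane-bound enzyme that activates it, had means of 4.82 to 5.25 and 7.01 to 7.38, and neither they nor Timp3 were called.

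Reln, which encodes reelin, a secreted glycoprotein of stellate cells in liver, was highest on low fat, with lowest, median and highest levels of 8.47, 9.19 and 9.47. High-fat livers stood at 8.37, 8.62 and 8.94, blackcurrant at 8.12, 8.55 and 8.96, bilberry at 8.51, 8.62 and 8.76, açai at 8.55, 8.65 and 8.86 and lingonberry at 8.14, 8.68 and 9.26. Apart from the lowest low-fat liver, replicate 6, which is also an array with pancreatic transcripts, the low-fat livers lay above all high-fat, blackcurrant, bilberry and açai livers. The medians of the 5 diets with more fat differed little.

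Against low fat Reln fell on blackcurrant by -0.57 ± 0.16 (SE, limma adjusted p = 0.0376), and it was lower there on 5 of 6 chips. The differences of -0.50 on high fat, -0.50 on bilberry and -0.47 on açai were called with chip as a block (limma adjusted p = 0.0242, 0.0382 and 0.0237) and not in the same fit without it (limma adjusted p = 0.0691, 0.102 and 0.0637). All 3 were also called with array weights, without the arrays of chip 6 and without low-fat replicate 6. On lingonberry it was -0.38 (limma adjusted p = 0.206). Once the arrays with pancreatic transcripts were left out, Reln was lower on high fat by -0.63 (limma adjusted p = 0.0187), on blackcurrant by -0.70 (limma adjusted p = 0.0214) and on bilberry by -0.63 (limma adjusted p = 0.0392). The blackcurrant call was lost in 16 of 52 other settings, among them without any of low-fat replicates 1 to 5 or blackcurrant replicates 2 to 6 (-0.59 to -0.49, limma adjusted p = 0.0506 to 0.124).

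The contractile and filament genes moved less. Acta2, smooth muscle actin and the usual marker of activated stellate cells, had lowest, median and highest levels of 7.08, 7.44 and 7.85 on lingonberry and 7.72, 7.81 and 8.05 on high fat. Only the highest lingonberry liver, replicate 4, reached the high-fat range. The difference of -0.43 ± 0.13 was called with chip as a block (limma adjusted p = 0.0232) and not without it (limma adjusted p = 0.0794), as was that of -0.39 against low fat (limma adjusted p = 0.0332 and 0.104). Both were also called without lingonberry replicate 4. The 3 dimmer Acta2 probes were also lower on lingonberry than on high fat, by as little as -0.03, with no call. Vim (vimentin) and Des (desmin), intermediate filaments of stellate cells, had diet means of 5.18 to 5.65 and 5.64 to 5.90. Lrat, the enzyme that esterifies retinol for storage in resting stellate cells, had means of 4.86 to 5.37. None of the 3 was called.

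The level of the whole list in a liver was described by the mean of its 30 genes. This mean was 6.89 ± 0.11 (SD, n = 6) on low fat, 6.86 ± 0.11 on açai, 6.78 ± 0.16 on high fat, 6.69 ± 0.04 on blackcurrant, 6.66 ± 0.06 on bilberry and 6.65 ± 0.13 on lingonberry. The lowest liver stood on chip 6 in 5 of 6 diets, and there 25 of the 30 genes were below the means of their diets on average, with a median deviation of -0.11. On chip 2 only 5 were below, with a median of 0.08. High-fat replicate 2, on that chip, had the highest mean of all 36 livers at 7.08. The highest liver of a diet stood on chip 1, 2, 3 or 5, so that the diets shared no full order of chips. Calls are given from the fit without the block, and blocked values are added where they change a call.

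**Figure D3:**
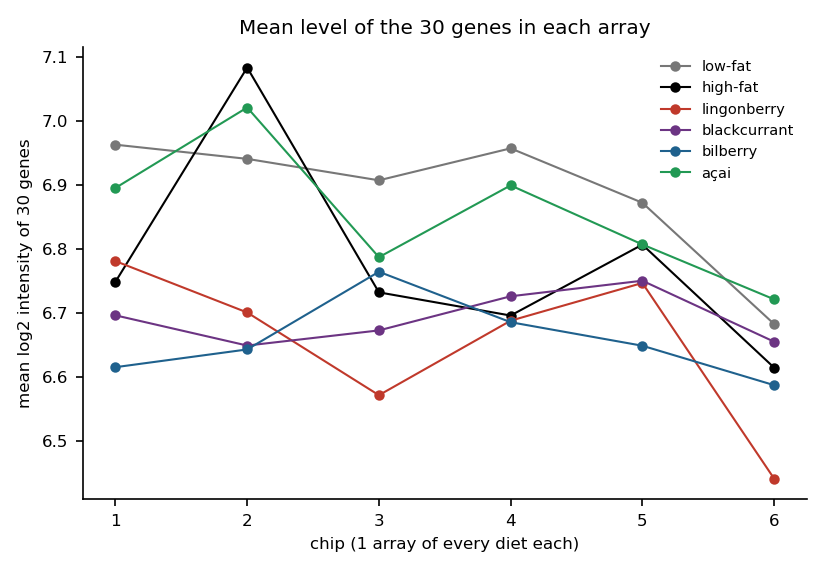
Mean log2 intensity of the 30 genes (y axis) in each array, by chip (x axis) and diet (lines). Low-fat and açai livers lay mostly above the others, and chip 6 held the lowest liver of 5 of the 6 diets.

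Genes that process, surround or signal to the matrix were counted from lists of the same biology, chosen with earlier results of these data known. Of 15 tested genes for collagen processing 1 fell on lingonberry against high fat, Serpinh1, which encodes the collagen chaperone HSP47. Its lingonberry livers ran from 6.98 to 8.09 with a median of 7.53 and its high-fat livers from 7.72 to 8.62 with a median of 7.99, ranges that overlapped. The difference was -0.54 ± 0.15 (SE, limma adjusted p = 0.0473), and açai stood above lingonberry by 0.52 (limma adjusted p = 0.0464). Both calls had little margin, being lost in 30 and 27 of 52 other settings, 22 and 18 of which left out a single array (limma adjusted p up to 0.139 and 0.141). Without the arrays with pancreatic transcripts the differences were -0.53 and 0.48 (limma adjusted p = 0.102 and 0.209). No other gene of the list was called in any pair of diets without the block.

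Of 23 other matrix genes Col16a1, which encodes a collagen that associates with fibrils, was higher on açai, from 5.90 to 6.23 with a median of 6.03, than on lingonberry, from 5.27 to 5.65, and blackcurrant, from 5.32 to 5.88, with no overlap in either. The differences were 0.57 ± 0.11 (SE, limma adjusted p = 0.00164) and 0.50 ± 0.11 (limma adjusted p = 0.0117). The first held in 52 of 52 other settings, and the second was lost without blackcurrant replicate 4 (0.45, limma adjusted p = 0.05004) and without the arrays of chip 2 or 4. Ltbp4, a protein that tethers latent transforming growth factor β, fell on high fat against low fat by -0.51 (limma adjusted p = 0.0484). Ogn, a small proteoglycan also called osteoglycin, fell against low fat on blackcurrant by -0.59 (limma adjusted p = 0.0268) and on açai by -0.51 (limma adjusted p = 0.0335). These 3 calls were lost in 24 of 52, 11 of 51 and 11 of 51 other settings. The blocked fit called 1 of the 23 genes on high fat, 3 on blackcurrant and 1 on açai against low fat, where 5.86%, 4.15% and 10.2% of all probes were called, and 3 and 2 on açai against lingonberry and blackcurrant (5.25% and 3.19%). The loss of the Ogn call on açai without the arrays with pancreatic transcripts (-0.55, limma adjusted p = 0.0655) is among those counted.

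Of 15 matrix-degrading genes Mmp12, the elastase of macrophages, was called, and it had the largest difference among these lists. Açai livers had lowest, median and highest levels of 5.74, 6.29 and 6.90, and low-fat livers of 4.36, 4.70 and 5.53. The other berries reached at most 5.44, so that all açai livers lay above all of these, whereas high-fat livers spread from 4.64 to 7.75. Mmp12 was higher on açai than on low fat by 1.57 ± 0.31, than on lingonberry by 1.64, than on blackcurrant by 1.42 and than on bilberry by 1.70 (SE, limma adjusted p = 0.00101, 0.00124, 0.00877 and 0.00232). Against high fat the difference was 0.72 (limma adjusted p = 0.715). The blackcurrant call was lost without the arrays with pancreatic transcripts (1.43, limma adjusted p = 0.0679) and without those of chip 5, and the other 3 were kept in all 51 other settings. The size of the difference depends on the processing, with lowest values of 0.62, 0.65, 0.58 and 0.67 in the order above. In the blocked fit 3 of the 15 genes were called on açai against low fat, where 10.2% of all probes were. Mmp12 was detected in 4 low-fat, 3 lingonberry, 4 blackcurrant and 2 bilberry livers of 6 each, so that the levels in these diets are near the limit of detection. On açai it was detected in all 6.

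**Figure D4:**
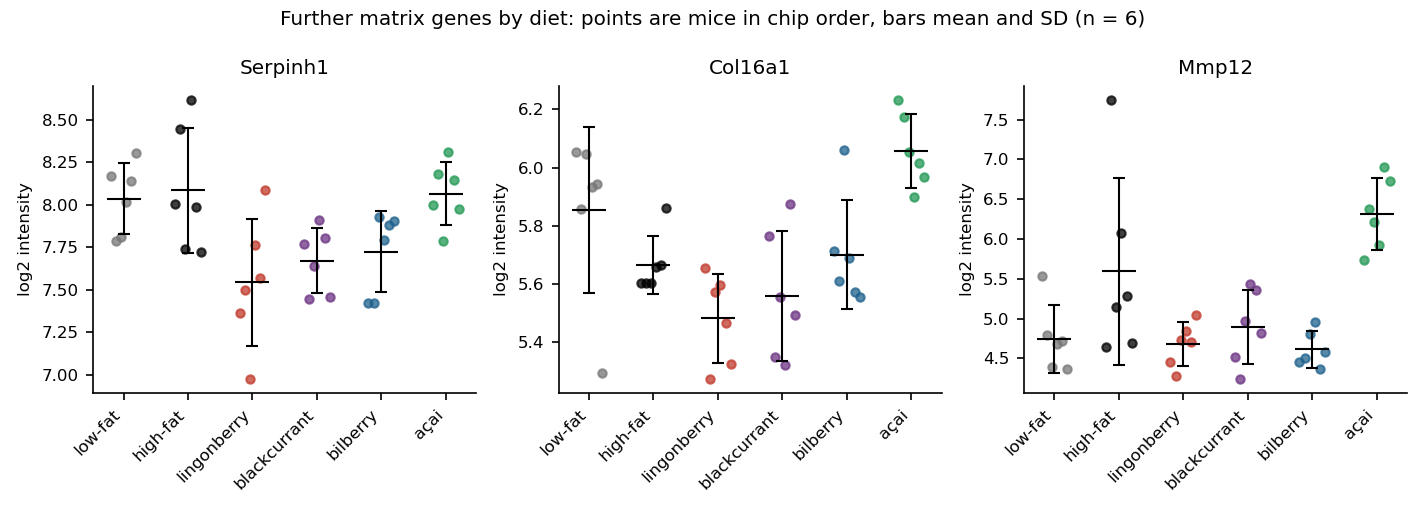
Log2 intensity (y axis) of Serpinh1, Col16a1 and Mmp12 in each diet (x axis). Points are mice in chip order, and bars give the mean and SD of 6 mice. Mmp12 lay between 5.74 and 6.90 on açai and between 4.64 and 7.75 on high fat, and at most 5.53 on the other 4 diets.

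Of 17 tested genes of transforming growth factor β signalling Skil, a repressor of SMAD proteins, fell against low fat on high fat by -0.60 ± 0.13 (SE, limma adjusted p = 0.00395), on bilberry by -0.55 (limma adjusted p = 0.0129) and on açai by -0.49 (limma adjusted p = 0.0117). Id1, a target of the related bone morphogenetic proteins, fell on açai against low fat by -0.72 (limma adjusted p = 0.0218). Leaving out the arrays with pancreatic transcripts, Skil kept its call on high fat (-0.57, limma adjusted p = 0.0146), while on bilberry and açai it was -0.53 and -0.46 (limma adjusted p = 0.053 and 0.0854) and Id1 was -0.34 (limma adjusted p = 0.308). Id1 also lost its call without low-fat replicate 5 or 6 or açai replicate 4 (-0.64 to -0.49, limma adjusted p = 0.0627 to 0.0743). With chip as a block 2 of the 17 genes were called on high fat against low fat, where 5.86% of all probes were. The comparisons with low fat share its 6 mice. None of the 10 further stellate cell genes tested was called.

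Markers of cell types other than stellate cells moved with some of these comparisons. The portal fibroblast markers Entpd2 and Gas6, 2 of 6 tested, were higher on açai than on low fat and blackcurrant, and Entpd2 also than on bilberry, at log2 differences of 0.67 to 0.74. Without the arrays with pancreatic transcripts only Entpd2 against low fat kept its call (0.75, limma adjusted p = 0.0206). Entpd2 then missed against blackcurrant and bilberry (limma adjusted p = 0.0598 and 0.0636), and so did Gas6 against low fat and blackcurrant (limma adjusted p = 0.0517 and 0.23). The Gas6 call against blackcurrant was lost in 14 of 52 other settings. The mean of the 6 markers, Entpd2 and Gas6 among them, ran from 5.64 to 5.89 on açai, 5.48 to 5.67 on low fat, 5.46 to 5.71 on blackcurrant, 5.39 to 5.67 on bilberry, 5.37 to 5.74 on lingonberry and 5.38 to 5.99 on high fat, and Fbln2 was below detection. Tpm2, 1 of 4 tested smooth muscle markers, was higher than on low fat in all 5 other diets, by 1.46 on high fat (limma adjusted p = 7.92e-06), 1.40 on lingonberry, 0.94 on blackcurrant, 1.32 on bilberry and 1.89 on açai, and on açai than on blackcurrant by 0.96. Without the arrays with pancreatic transcripts Tpm2 on blackcurrant lost its call against low fat (0.78, limma adjusted p = 0.0672). The mean of the 4 markers ran from 4.91 to 5.20 on low fat, 5.21 to 5.62 on high fat, 5.24 to 5.51 on lingonberry, 4.88 to 5.46 on blackcurrant, 5.18 to 5.60 on bilberry and 5.46 to 5.64 on açai, and Cnn1 and Lmod1 were below detection. Tpm2 itself is counted in that mean, which is therefore no separate measure of smooth muscle. Of 6 tested hepatocyte markers 2 were called, Cps1 and Ass1, while Alb, Ttr, Apoa1 and Tat were not. Cps1 was lower than on low fat by -0.92 on high fat, -0.74 on lingonberry, -0.86 on blackcurrant, -0.77 on bilberry and -1.25 on açai. Ass1 was lower by -0.50 on high fat, -0.40 on lingonberry, -0.54 on blackcurrant and -0.49 on açai (limma adjusted p = 0.00367, 0.021, 0.00233 and 0.00207). The Cps1 call on bilberry (limma adjusted p = 0.0193) and the Ass1 call on lingonberry were each lost in 7 of 52 other settings. Among these, for Ass1, was the fit without the arrays with pancreatic transcripts (-0.41, limma adjusted p = 0.0788). Ehd3, 1 of 9 tested sinusoidal endothelial markers, was lower on high fat than on low fat by -0.52 (limma adjusted p = 0.0136). That call was lost in 5 of 52 other settings. The mean of the 9 endothelial markers, Ehd3 among them, ran from 6.81 to 7.05 on high fat and from 6.96 to 7.12 on low fat, ranges that overlapped. The mean of 6 hepatocyte markers, Cps1 and Ass1 among them, ran from 10.9 to 11.2 on high fat and from 11.1 to 11.6 on low fat. It ran from 10.8 to 11.4 on lingonberry, 10.7 to 11.2 on blackcurrant, 10.8 to 11.2 on bilberry and 10.8 to 11.4 on açai. The part of these cell types in the matrix gene differences was not tested.

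How the genes varied among mice of the same diet was asked by correlating each with Col3a1 over the 36 livers after subtracting diet means. Col1a1, planned for this place, had no tested probe. Of 58 relations computed, 29 with Col3a1 and 29 with Ccn2, 3 passed, all with Col3a1. Pearson's r was 0.71 for Mmp14 (Spearman's rho 0.62), 0.62 for Col4a2 (rho 0.61) and 0.61 for Bgn (rho 0.53), with permutation p = 5e-05, 3e-05 and 0.00018 for r and 0.00048, 0.00018 and 0.00323 for rho, permuting within diets. The adjusted values for r were 0.00145, 0.00145 and 0.00348, and for rho 0.0139, 0.0104 and 0.0624, so that Bgn did not pass by rank. Without the livers farthest from the Col3a1 median, high-fat replicate 2 and açai replicate 3, r was 0.71, 0.58 and 0.50.

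These 3 relations were weaker within chips. After subtracting chip means as well, r was 0.36 for Mmp14, 0.46 for Col4a2 and 0.35 for Bgn (adjusted permutation p = 0.149, 0.0637 and 0.178). In that form 2 other relations passed, with Col5a1 (r = 0.54) and Col6a1 (r = 0.52), each at an adjusted permutation p of 0.0397, where without the chip means r was 0.34 and 0.40 (adjusted permutation p = 0.189 and 0.128). The permutations still moved livers between chips within a diet, which tends to make p too small once chip means are subtracted. These 2 passes are therefore not firm. Within single chips of 6 livers r for Col4a2 was positive on 6 of 6 chips (0.18 to 0.75), for Mmp14 on 5 (-0.16 to 0.99) and for Bgn on 5 (-0.28 to 0.66). Over the 30 livers whose arrays lacked pancreatic transcripts r was 0.63, 0.54 and 0.55, and the adjusted permutation p was 0.0596, 0.0596 and 0.0642. Col3a1 correlated positively with 24 of 29 genes and Ccn2 with 14 of 29, the highest for Ccn2 being Acta2 (r = 0.50, adjusted permutation p = 0.0535). The median r was 0.27 for Col3a1 and -0.01 for Ccn2.

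**Figure D5:**
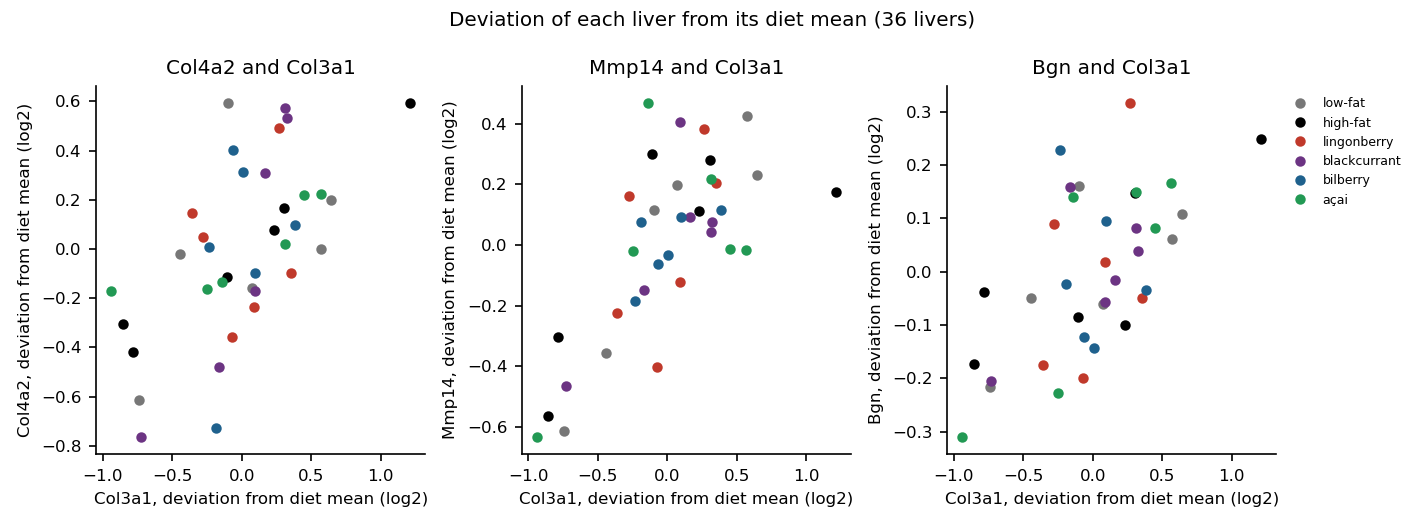
Deviation of each liver from its diet mean (log2) for Col4a2, Mmp14 and Bgn (y axes) against that of Col3a1 (x axes), with 36 livers coloured by diet. The high-fat liver at the far right is replicate 2, and r was 0.62, 0.71 and 0.61 over all livers.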

How the data were processed

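Liver RNA of 36 mice was measured on Illumina MouseWG-6 v2.0 beadchips. The authors deposited a linear intensity and a detection p-value for each probe and array; no software is named for them. The deposited intensity was not background-subtracted, judged by its lowest values. The authors also deposited processed log2 values, with a normalization not stated in them; the largest gap between these log2 values and the ones from neqc was 0.0501.

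In R 4.3.3, limma 3.58.1 (neqc, offset 16) estimated the background from the detection p-values, subtracted it, and quantile normalized the log2 intensities, leaving out 974 control entries from the tests. Probes with a detection p-value below 0.05 on at least 6 of 36 arrays were tested, 17907 in all. Of these, 15409 carried 1 gene symbol. Diets were compared by lmFit with a mean per diet, contrasts and eBayes, two-sided, with Benjamini-Hochberg adjustment over the tested probes. Correlations used 100000 permutations within diets. The procedure was tested on simulated data. The members, lists, tests and rule for named genes, all members plus up to 4 called genes per further list and comparison, were chosen with earlier results of these data known. The correlation was planned with Col1a1; Col3a1 and Ccn2 took its place after the data were seen.

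The array titles name the chip, which pairs livers across diets. Deviations from diet means correlated at a median of 0.11 over 90 pairs of arrays on the same chip (-0.12 to 0.44) and -0.03 over 450 pairs on different chips. Alternatives were another background correction, the authors' values, other probe filters, variance estimates, array weights, fits on fewer diets and leaving out arrays. Motifs were counted in RefSeq promoters (GRCm38.p6). Python 3.11.15 with matplotlib 3.10.9 made the figures.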

Additional observations from a re-analysis of the deposited data

Results flagged for a closer look

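Among the 30 genes and 6 diets, 180 groups of 6 livers were searched for a liver whose gap to its nearest neighbour exceeded Dixon's critical value at the 95% level. Chance alone gives about 9 such groups, and 10 were found. In high-fat livers replicate 2 stood above the others for Lum (7.11 against at most 6.49), Timp1 (5.70 against 4.84) and Mmp2 (5.76 against 4.92), and it also had the highest mean of the list. In açai livers Sparc of replicate 1 (8.44, next 8.20) stood high and Des of replicate 5 (5.32, next 5.65) low. Lingonberry replicate 5 was low for Col6a1 (5.16, next 5.62) and high for Tgfbi (9.58, next 9.26). Bilberry replicate 6 was low for Col6a1 (4.87, next 5.46), and bilberry replicate 3 high for Col15a1 (4.80, next 4.35). Blackcurrant replicate 3, an array with pancreatic transcripts, was high for Tgfb1 (5.45, next 4.91). Without açai replicate 1 Sparc was higher on açai than on lingonberry by 0.38 (limma adjusted p = 0.0504).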

How the results depend on the processing

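The limits of these data are the few calls, the closeness of many to the threshold, and faint signals for Col1a1, Timp1, Col15a1, Col6a2 and Col1a2. Over 73 gene results, members and listed genes together, and 3779 alternative values none reversed sign, while 316 lost and 107 gained a call. The F values among them cannot change sign. The results were followed because a fit had called them, so the lack of reversals says little. The pairing of livers by chip gave, with chip as a replicate block, 2 called genes for high fat against low fat and 2 for lingonberry against high fat. Against low fat it gave 3 for lingonberry, 4 for blackcurrant, 3 for bilberry and 3 for açai, for açai 4 against lingonberry, 2 against blackcurrant and 2 against bilberry, and 8 over all diets. The block changed no other count of members called between diets.

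Without the arrays with pancreatic transcripts, an alternative added after seeing the data, the counts were 1 for high fat against low fat, 0 for bilberry against high fat, 1 and 1 for lingonberry and bilberry against low fat, 1, 0 and 0 for açai against lingonberry, blackcurrant and bilberry, 2 over all diets and 0 correlations. On blackcurrant against low fat they were 3. Array weights gave 1, 1, 1 and 3 for high fat, lingonberry, bilberry and açai against low fat, 4 and 2 for açai against lingonberry and bilberry, and 7 over all diets. With all probes tested bilberry against high fat gave 0, blackcurrant against low fat 1 and açai against bilberry 0. Counting any tested probe gave 2 for lingonberry against high fat and 1 against low fat. Without background correction high fat against low fat gave 1, bilberry against high fat 0, açai against low fat 1 and açai against bilberry 0. Normexp with an offset of 50 gave 1 for açai against low fat. Fitting only the diets compared gave 1, 0 and 1 for lingonberry, blackcurrant and bilberry against low fat and 2 for açai against bilberry. Probes detected on all 36 arrays gave 1 and 2 for bilberry and açai against low fat. Trend and robust variances gave 0 for bilberry against high fat, 1 for lingonberry against low fat and 0 for açai against bilberry. The share of all probes called is given only for the main and blocked fits. Under the other settings a change in these counts cannot be told apart from a change over all probes. The causes were not tested.

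Leaving out each chip or single array, 42 fits a result, gave 1 to 6 genes over all diets, 0 to 2 for high fat against low fat, 0 to 2 for lingonberry and 0 to 1 for bilberry against high fat, and 0 for blackcurrant and açai. Against low fat it gave 0 to 2 for lingonberry, 1 to 4 for blackcurrant, 0 to 2 for bilberry and 0 to 2 for açai. For açai it gave 0 to 3 against lingonberry and 0 to 2 against blackcurrant and bilberry, with 0 in the other pairs of berries. The share of all probes called in these fits is not given either. Leaving out each chip, and lingonberry replicate 2 as the only single array tried, gave 3 to 4 correlations.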
